A study of Mus musculus with 2 samples.

Results

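The Nrf2 antioxidant response genes are given here as 9 named genes of the 32285 that were counted. They are Nfe2l2, which encodes the transcription factor Nrf2, its inhibitor Keap1, and 7 genes that Nrf2 is known to activate: Hmox1, Nqo1, Gclc, Gclm, Txnrd1, Srxn1 and Slc7a11. They were listed by name, without a threshold on their values but with earlier results of these data known. Counts of called members beside shares of all genes are therefore a description. Each gene was found by its Ensembl identifier in the GENCODE annotation of GRCm38, which named 32235 of the 32285 genes. RNA of single retinal cells was measured with the 10x Genomics 3′ protocol in 2 libraries, 1 control and 1 light damage. All animals were functionally wild type mice with both Tgfbr2 alleles floxed and no recombinase stated, on a Balb-C/CD1 background, homozygous for the L450 variant of RPE65, of either sex and 6 to 9 weeks old. Controls were kept in dim light under 50 lux and then for 18 h in complete darkness. Light damage mice had the same dark adaptation, then 30 min of white light at 5000 lux and 6 h of recovery in dim light.

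Each library pools the retinae of 3 to 5 mice. With 1 library per condition there is no replicate check and no p-value. All intervals below are exact 95% intervals of counting error only. Those of levels and log2 ratios take the UMIs of a class as independent, so that spread between droplets is outside them. PCR, library and animal effects are outside all intervals.

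Nrf2 is held low in resting cells because Keap1 passes it to a Cul3 ubiquitin ligase for degradation. Oxidants and electrophiles modify cysteines of Keap1, newly made Nrf2 then escapes degradation, pairs with a small Maf protein in the nucleus and binds antioxidant response elements, which Bach1 otherwise occupies as a repressor. The targets make glutathione, recycle thioredoxin and peroxiredoxin, and handle heme and quinones. In the retina this response is known mainly from glia and from the retinal pigment epithelium (RPE), the pigmented layer that serves the photoreceptors. Control of Nrf2 is mostly on the protein, which RNA counts do not measure.

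The genes lie on 5 chromosomes of GRCm38. Nfe2l2 is at chr2:75675513-75704641 on the minus strand, Keap1 at chr9:21229730-21239361 on the minus strand, Hmox1 at chr8:75093621-75100589 on the plus strand and Nqo1 at chr8:107388225-107403206 on the minus strand. Gclc is at chr9:77754535-77794485 on the plus strand, Gclm at chr3:122245557-122270732 on the plus strand and Slc7a11 at chr3:49892526-50443614 on the minus strand. Txnrd1 is at chr10:82833951-82897712 on the plus strand, where it shares bases with Eid3 on the same strand, and Srxn1 at chr2:152105516-152111376 on the plus strand. All are protein-coding genes, and values below are UMIs over their exons unless unspliced UMIs are named.

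RefSeq promoter windows of GRCm38.p6, from 250 bases before to 50 bases after a start, were given for 7 of the 9 genes. They were searched on both strands for the core of the antioxidant response element, TGACNNNGC. Of 9 windows (Txnrd1 has 3), 4 held the core, and 4071 of all 32851 promoter windows (12.4%) did. The 4 matches are shown because they are the letters on which Nrf2 binding could be examined, each 5′ to 3′ on the strand of the match with the core in capitals.
Nfe2l2: cagcccaccTGACTCCGCcatgccccg
Gclm: cgtgagagtTGACGGTGCgcccgggag
Txnrd1: gtgtcagaaTGACAAAGCaaaaatcca
Srxn1: gtctcactcTGACCTAGCtgcccactg
Coordinates below are those of the printed stretch with its flanks, and distances are those of the core. The Nfe2l2 stretch is at chr2:75704886-75704912, with the core on the strand of the gene and 232 bases before the start. The Gclm stretch is at chr3:122245414-122245440, with the core on the other strand and 126 bases before the start. The Txnrd1 stretch is at chr10:82859105-82859131, with the core on the other strand and 84 bases before the start of its middle window. The Srxn1 stretch is at chr2:152105543-152105569, with the core on the other strand and 29 bases after the start. Keap1, Nqo1 and Slc7a11 had no match in their windows, and such a match or its absence is a description of letters and says nothing of binding.

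The control library held 30605284 UMIs, 18.7% of them unspliced, and the light damage library 54413601 UMIs, 32.7% unspliced. The sex makeup of the pools differed, with 4770 against 3 UMIs of Xist and 6775 against 31899 UMIs of Y-linked genes, so that sex and light cannot be told apart in any comparison below. The libraries shared 7 barcodes. After filters 3669 control and 5593 light damage droplets were kept and clustered without the 9 genes, and classes were named "-like" from markers. Rod-like droplets were split by their unspliced share into cytoplasm-rich rods (under 20%, 2354 control and 1764 light damage droplets) and nucleus-rich rods (at least 30%, 698 and 3086 droplets). Cone-like droplets numbered 205 and 101, RPE-like droplets 159 and 301, Müller-like droplets 52 and 91, and microglia-like droplets 12 and 40. Plots carry the short names cones, RPE, Müller glia and microglia for these classes.

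Limits of 3 classes bear on what follows. Every one of the 10 microglial markers was detected in microglia-like droplets of each library, but free RNA (RNA from outside the cell, as seen in barcodes under 50 UMIs) was estimated at 57.6% of the control UMIs and 6.60% of the light damage UMIs. Control microglia-like droplets held 32726 exonic UMIs in all, so that 3 UMIs are 91.7 CPM, where CPM is the UMIs of a gene per 1000000 exonic UMIs of the same droplets. Müller-like droplets had free RNA estimated at 19.7% and 35.7%, and their marker sum was 28273 CPM in the control and 10392 CPM in the light damage library. Outside rods and cones this estimate rests on 6 rod genes. Rod RNA that belongs to the droplets themselves is therefore counted as free RNA. Müller markers also summed to 23534 CPM in control and 25274 CPM in light damage RPE-like droplets, with 6 and 8 of the 10 detected. Their sum is thus not particular to Müller-like droplets. Flt1, a gene best known from endothelium, was among the leading genes of the Müller-like cluster beside the Müller marker Slc1a3. In RPE-like droplets, 106 of the 301 light damage droplets formed a cluster of their own with 0 control droplets. The median depth also differed, from 2635 to 6019 UMIs per droplet in RPE-like and from 2407.5 to 8205 in Müller-like droplets.

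After light damage several of the 9 genes were higher in RPE-like, Müller-like and microglia-like droplets, as were 1 or 2 in each rod class and 0 in cone-like droplets. A gene is called higher or lower here when its CPM differed at least 2-fold and the interval of the log2 ratio left out 0, among genes with at least 10 UMIs over both libraries. A fold against 0 UMIs is a bound computed against 3 UMIs. In RPE-like droplets 4 of 8 genes with enough UMIs were called higher (Nfe2l2, Hmox1, Gclc and Srxn1) and 0 lower, where 8.38% of 10379 genes were higher and 5.22% lower. In Müller-like droplets 4 of 8 were called higher (Hmox1, Txnrd1, Srxn1 and Slc7a11) and 0 lower, where 10.7% of 9284 genes were higher and 11.3% lower. In microglia-like droplets 2 of 8 were called higher (Nfe2l2 and Txnrd1) and 1 lower (Keap1), where 5.29% of 5806 genes were higher and 8.66% lower. In cone-like droplets 0 of 6 were called higher and 1 lower (Srxn1), where 14.1% of 10134 genes were higher and 3.31% lower. In nucleus-rich rods 2 of 8 were called higher (Nfe2l2 and Hmox1) and 0 lower, where 5.34% of 13315 genes were higher and 4.33% lower. In cytoplasm-rich rods 1 of 8 was called higher (Hmox1) and 0 lower, where 5.11% of 10860 genes were higher and 1.38% lower.

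The median log2 ratio of the tested members, with genes at 0 UMIs in a library set at their bound, was 1.18 in RPE-like and 1.95 in Müller-like droplets, beside 0.055 and 0.054 over all tested genes. It was 0.35 in cone-like droplets (0.28 over all genes), 0.32 in nucleus-rich rods (0.00079) and 0.34 in cytoplasm-rich rods (0.18). In microglia-like droplets it was -0.42 beside -0.33, with 5 of the 8 members at 0 UMIs in the control library. Of these, Hmox1, Gclm, Srxn1 and Slc7a11 had 26, 14, 23 and 22 light damage UMIs and entered below 0 through their bound. This negative median is therefore not read as a fall. The median gene with at least 50 UMIs in each library stood at -0.11 in RPE-like, -0.30 in Müller-like and -0.52 in microglia-like droplets, at 0.17 in cytoplasm-rich rods and near 0 in the other classes. Relative to the median gene, log2 ratios of members are thus larger in the first 3 of these classes and smaller in cytoplasm-rich rods. In the first 3 the median gene was taken over 2086, 349 and 88 genes, and the part of free RNA in it was not tested.

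**Figure D1:**
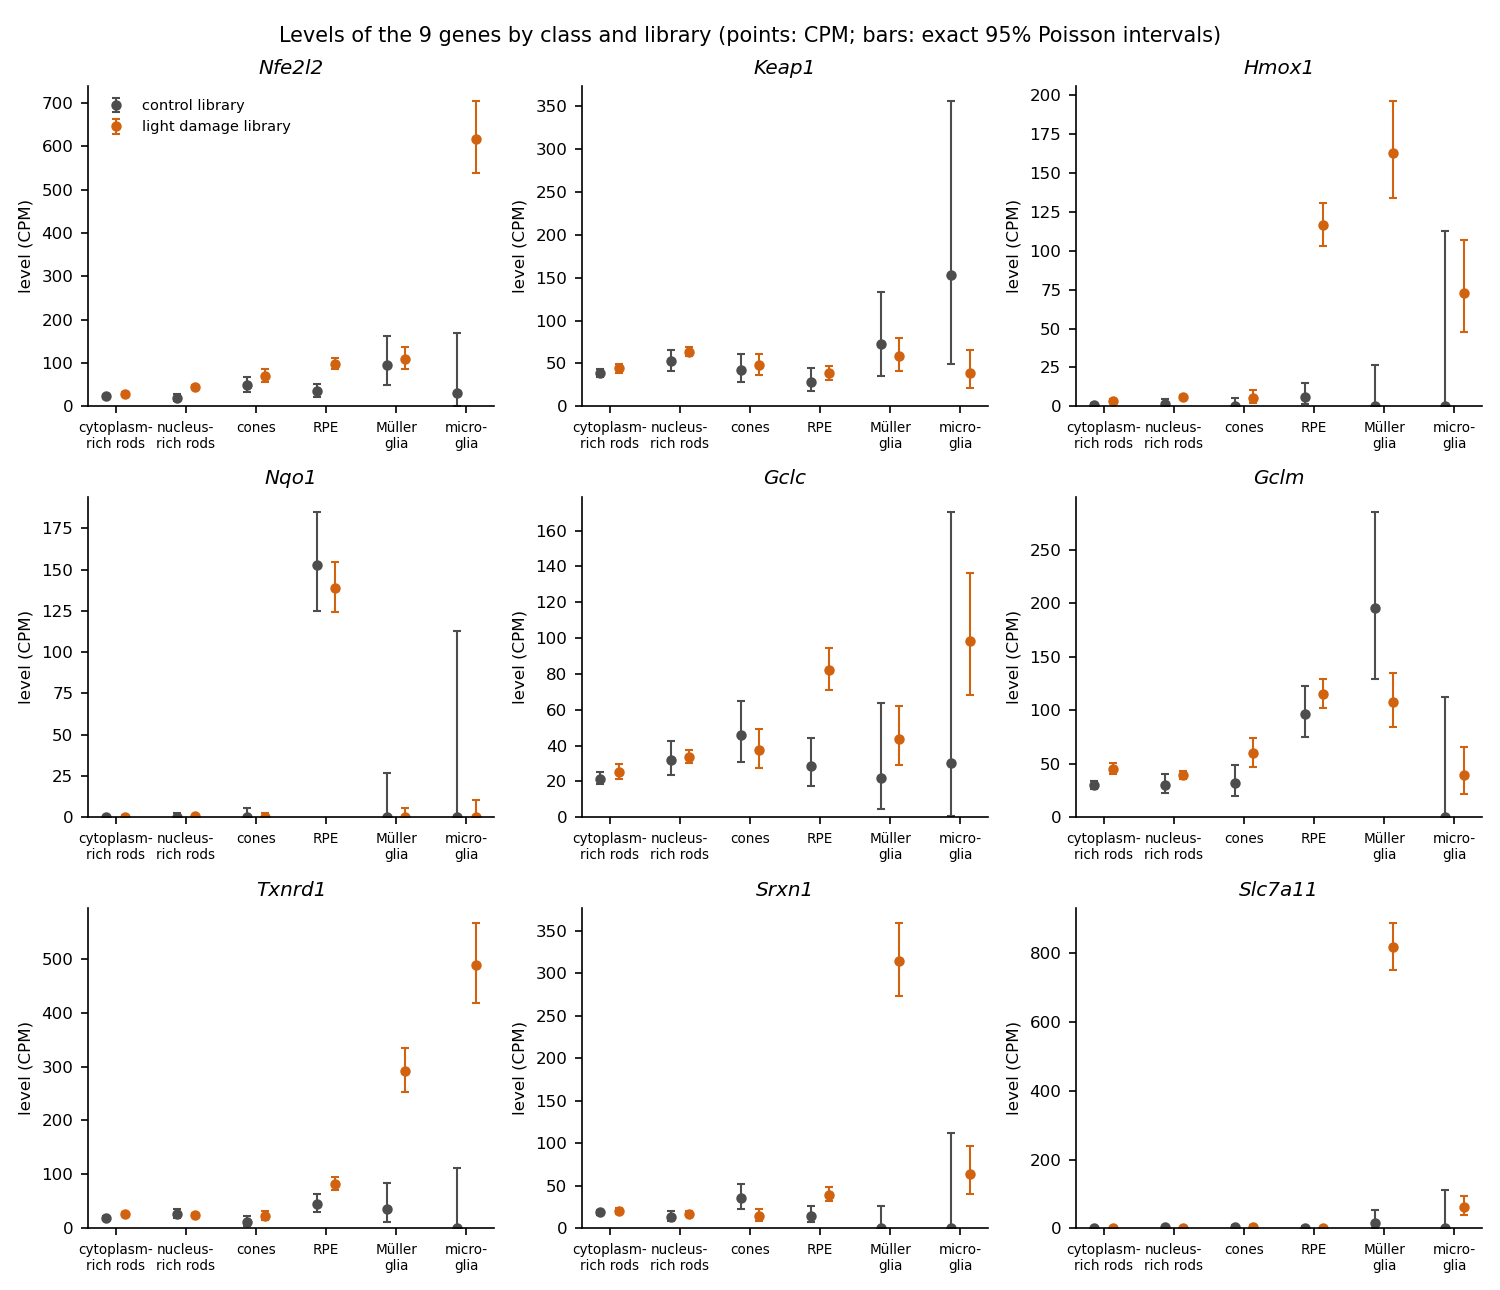
Levels of the 9 genes in CPM (linear vertical axes that start at 0) in 6 classes (horizontal axis), with points for the control library in grey and the light damage library in orange and bars for exact 95% Poisson intervals. Nqo1 stood at 153 and 139 CPM in RPE-like droplets and near 0 elsewhere, Slc7a11 reached 816 CPM in Müller-like droplets after light damage, and Nfe2l2 reached 617 CPM in microglia-like droplets.

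**Figure D2:**
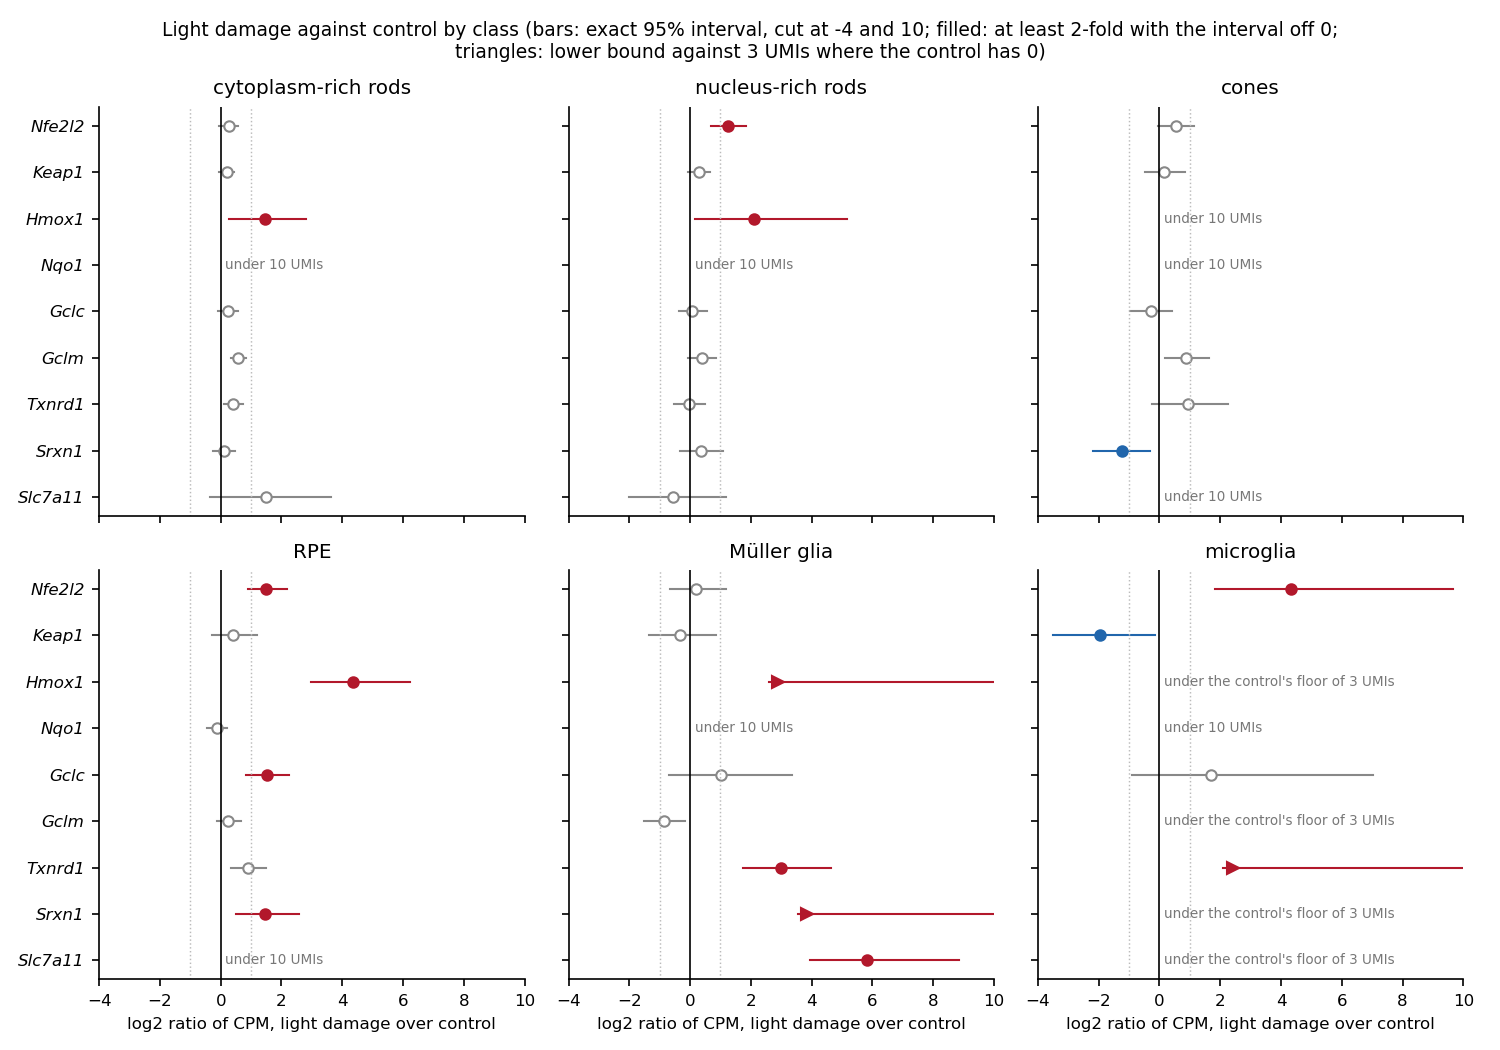
Log2 ratios of CPM, light damage over control, for each gene (rows) and class (panels), with bars for exact 95% intervals, filled points for ratios of at least 2-fold with the interval off 0, and triangles for lower bounds against 3 UMIs. The farthest right is Slc7a11 in Müller-like droplets at 5.81, and the filled points left of 0 are Srxn1 in cone-like droplets at -1.24 and Keap1 in microglia-like droplets at -1.96.

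Nfe2l2, the gene of the activator itself, was present in every class. In the control library its levels ran from 94.4 CPM in Müller-like droplets over 48.7 in cone-like, 34.6 in RPE-like and 30.6 in microglia-like droplets to 23.5 in cytoplasm-rich and 19.0 CPM in nucleus-rich rods, and no neighbours in this order differed beyond their intervals. After light damage microglia-like droplets stood apart at 617 CPM, followed by Müller-like at 109, RPE-like at 97.7 and cone-like droplets at 70.4, which overlapped, then nucleus-rich rods at 45.1 and cytoplasm-rich rods at 28.2 CPM, each apart from its neighbour.

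In RPE-like droplets Nfe2l2 went from 24 UMIs (34.6 CPM) to 234 UMIs (97.7 CPM), a log2 ratio of 1.50 (interval 0.89 to 2.17). In nucleus-rich rods it went from 28 UMIs (19.0 CPM) to 475 UMIs (45.1 CPM), a log2 ratio of 1.25 (0.70 to 1.85). In microglia-like droplets 1 UMI in 12 control droplets stood against 220 UMIs in 40 light damage droplets, 31 of which held at least 1, and the log2 ratio of 4.33 has an interval of 1.84 to 9.65. The rise passed in these 3 classes and not in the others. Cytoplasm-rich rods were close to level, at 23.5 and 28.2 CPM (log2 ratio 0.26, -0.04 to 0.57), cone-like droplets held 48.7 and 70.4 CPM (0.53, -0.05 to 1.15), and Müller-like droplets 94.4 and 109 CPM (0.21, -0.65 to 1.18).

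Keap1, the inhibitor of Nrf2, was present in every class. Its control levels lay between 28.8 CPM in RPE-like and 72.6 CPM in Müller-like droplets, apart from 153 CPM on 5 UMIs in microglia-like droplets, and after light damage all 6 classes lay between 38.4 and 63.8 CPM. Neighbours in either order overlapped. It was called in microglia-like droplets alone, where it went from 5 UMIs (153 CPM) to 14 UMIs (39.2 CPM), a log2 ratio of -1.96 (-3.52 to -0.13). This call was lost in 5 of 13 alternative settings, among them leaving out droplets of high free RNA, and the log2 ratio ranged from -2.53 to -0.80 over them. In RPE-like droplets the ratio was 0.42 (-0.29 to 1.19), in Müller-like droplets -0.32 (-1.34 to 0.85), in cone-like droplets 0.16 (-0.49 to 0.85) and in nucleus-rich rods 0.29 (-0.05 to 0.65), none of them called.

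Hmox1 encodes the inducible heme oxygenase, which breaks heme down to biliverdin, iron and carbon monoxide. In the control library it was nearly absent: RPE-like droplets held 4 UMIs (5.76 CPM), cytoplasm-rich rods 9 (1.16 CPM), nucleus-rich rods 2 (1.36 CPM), and cone-like, Müller-like and microglia-like droplets 0. After light damage it reached 163 CPM in Müller-like droplets (112 UMIs), 116 CPM in RPE-like (279 UMIs) and 72.9 CPM in microglia-like droplets (26 UMIs). It was between 3.22 and 5.79 CPM in rod and cone classes, where the intervals of neighbours in the order overlapped, though the ratio of nucleus-rich over cytoplasm-rich rods had an interval off 0 (log2 ratio 0.85, 0.10 to 1.65).

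The change of Hmox1 in RPE-like droplets was 20.2-fold, a log2 ratio of 4.34 (2.97 to 6.22). In Müller-like droplets it was at least 7.48-fold. In microglia-like droplets the light damage level lay under that of 3 control UMIs, so no change could be seen at this depth. Smaller ratios were called in nucleus-rich rods, from 1.36 to 5.79 CPM (log2 ratio 2.09, 0.18 to 5.17), and in cytoplasm-rich rods, from 1.16 to 3.22 CPM (1.47, 0.27 to 2.79). The free RNA of the light damage library also held more Hmox1, 34.5 CPM beside 3.18 CPM in the control. At the estimated share of free RNA it would add 0.309 CPM to nucleus-rich rods, 0.184 CPM to cytoplasm-rich rods, 2.07 CPM to RPE-like and 12.3 CPM to Müller-like droplets after light damage.

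Per droplet, Hmox1 was detected in 4 of 159 control RPE-like droplets (2.52%, interval 0.690 to 6.32%) and in 108 of 301 after light damage (35.9%, 30.5 to 41.6%). Because depth differed, droplets were thinned to 1500 UMIs, which left out 12 control and 3 light damage droplets. The thinned shares were 0 of 147 (0%, interval up to 2.48%) and 50 of 298 (16.8%, 12.7 to 21.5%). Cytoplasm-rich rods, taken as cells with little Hmox1, held it in 4 of 2216 (0.181%) and 9 of 1764 (0.510%) thinned droplets, with median depths of 2748 and 3152 UMIs before thinning.

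Nqo1, the quinone reductase often used to report Nrf2 activity, was an RPE gene here. RPE-like droplets held 106 UMIs (153 CPM) in the control and 333 UMIs (139 CPM) in the light damage library, and the log2 ratio of -0.14 (-0.45 to 0.19) has an interval within 2-fold in either direction. All other classes together held few exonic UMIs: 0 in the control library, and after light damage 6 in nucleus-rich rods, 2 in cytoplasm-rich rods and 0 in cone-like, Müller-like and microglia-like droplets. RPE-like droplets stood apart from the next class in each library. The free RNA held 2.38 and 15.3 CPM of Nqo1. Light damage Müller-like droplets, at 0 UMIs, are bounded at 5.37 CPM by the interval, beside 5.45 CPM expected there at the estimated share of free RNA.

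Slc7a11 encodes the transport subunit of the cystine/glutamate exchanger, which brings in the cystine from which glutathione is made. It showed the highest ratio of all members, and in Müller-like droplets. The control library held 2 UMIs (14.5 CPM) in 52 Müller-like droplets and the light damage library 561 UMIs (816 CPM) in 91, a log2 ratio of 5.81 (3.95 to 8.86), or 56.2-fold. Its unspliced UMIs went the same way there, from 7 to 588. UMIs were found in 39 of 91 light damage droplets (42.9%, 32.5 to 53.7%) against 2 of 52 (3.85%, 0.469 to 13.2%), with at most 56 UMIs in a droplet. Of the 561 UMIs, 534 lay in 27 of the 91 droplets, which are described below. After thinning to 1500 UMIs, which left out 28 of the 52 control droplets as too shallow, the shares were 29 of 80 (36.3%) and 2 of 24 (8.33%), beside 1 of 1764 and 1 of 2216 droplets of cytoplasm-rich rods.

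After light damage Slc7a11 was next highest in microglia-like droplets, at 61.7 CPM (22 UMIs, 13 of them in a droplet), apart from Müller-like droplets above and cone-like droplets below. Cone-like droplets held 2.95 and 3.74 CPM, RPE-like droplets 1.44 and 1.67 CPM, nucleus-rich rods 3.39 and 2.28 CPM and cytoplasm-rich rods 0.516 and 1.45 CPM. These 4 classes overlapped in each library and none was called. In nucleus-rich rods most UMIs of the gene were unspliced, 40 beside 5 exonic in the control (88.9%) and 203 beside 24 after light damage (89.4%), where the class as a whole was 58.9% and 53.0% unspliced.

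Gclc and Gclm encode the catalytic and the modifier subunit of glutamate-cysteine ligase, which carries out the limiting step of glutathione synthesis. The subunits did not move alike. In RPE-like droplets Gclc went from 20 UMIs (28.8 CPM) to 197 UMIs (82.2 CPM), a log2 ratio of 1.51 (0.85 to 2.26), while Gclm held 96.5 and 115 CPM (0.26, -0.13 to 0.66). Their intervals did not overlap, a comparison that was set up after the values were seen. A single light damage droplet held 28 of the 197 Gclc UMIs, and without the droplet of most UMIs on each side the gene was still called.

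Elsewhere Gclc was not called. Its levels were 21.5 and 25.3 CPM in cytoplasm-rich rods, 31.9 and 33.7 CPM in nucleus-rich rods, 45.7 and 37.4 CPM in cone-like droplets, 21.8 and 43.7 CPM in Müller-like droplets (3 and 30 UMIs, log2 ratio 1.00, -0.68 to 3.36) and 30.6 and 98.1 CPM in microglia-like droplets (1 and 35 UMIs). In control droplets no class stood apart. After light damage microglia-like and RPE-like droplets overlapped at the top, RPE-like droplets lay above Müller-like droplets, and cytoplasm-rich rods lay below nucleus-rich rods.

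Gclm in control droplets was highest in the Müller-like class at 196 CPM (27 UMIs), then in the RPE-like class at 96.5 CPM, and at 30.3 to 32.4 CPM in rod and cone classes. After light damage RPE-like (115 CPM) and Müller-like droplets (108 CPM) overlapped. The log2 ratio in Müller-like droplets was -0.86 (-1.52 to -0.17), under 2-fold, and without the droplet of most UMIs on each side it was -0.10 (-0.89 to 0.76). Below 2-fold but with intervals off 0 were cytoplasm-rich rods, from 235 UMIs (30.3 CPM) to 282 UMIs (45.4 CPM, log2 ratio 0.58, 0.33 to 0.84), and cone-like droplets, from 32.4 to 59.9 CPM (0.88, 0.19 to 1.64). Nucleus-rich rods held 30.5 and 39.7 CPM (0.38, -0.07 to 0.85).

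Gclm held many unspliced UMIs. In RPE-like droplets 46.0% of its control and 34.9% of its light damage UMIs were unspliced, where the class as a whole stood at 4.77% and 6.04%, and of the other members with at least 10 exonic UMIs none passed 1.27%. In cytoplasm-rich rods the shares of Gclm were 39.1% and 24.4%, where the class stood at 5.49% and 5.66%. Gclm levels on exonic UMIs thus leave out a large part of the UMIs assigned to the gene. With unspliced UMIs added the log2 ratio of cytoplasm-rich rods was 0.27 (0.06 to 0.48).

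Txnrd1 encodes the cytosolic thioredoxin reductase, which keeps thioredoxin reduced at the cost of NADPH. Control levels lay between 11.8 CPM in cone-like and 44.7 CPM in RPE-like droplets and at 0 UMIs in microglia-like droplets, and neighbours overlapped. After light damage microglia-like droplets stood at 488 CPM (174 UMIs), Müller-like droplets at 291 (200 UMIs), RPE-like droplets at 83.1, and rods and cones between 22.5 and 26.4 CPM. Each of the first 3 lay apart from the next.

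In Müller-like droplets Txnrd1 went from 5 UMIs (36.3 CPM) to 200 UMIs (291 CPM), a log2 ratio of 3.00 (1.76 to 4.64). In microglia-like droplets the bound was at least 5.32-fold, and with droplets of high free RNA left out it was at least 2.36-fold. RPE-like droplets held 44.7 and 83.1 CPM, and their log2 ratio of 0.90 (0.34 to 1.49) missed 2-fold, though relative to the median gene it was 1.00. The ratio was 0.42 (0.09 to 0.75) in cytoplasm-rich rods, -0.03 (-0.52 to 0.50) in nucleus-rich rods and 0.93 (-0.23 to 2.26) in cone-like droplets.

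In the control library, a droplet in the cone-like cluster with 54735 UMIs and 0 UMIs of cone markers held 96 of the 104 Txnrd1 UMIs of that cluster. Droplets without a UMI of their class markers were left out for this reason, a choice made after the data were seen. With that droplet kept, Txnrd1 in the cone-like cluster would be called lower, at a log2 ratio of -2.63.

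Srxn1 encodes sulfiredoxin, which repairs overoxidised peroxiredoxins. It was called in 3 classes and not in a single direction. In Müller-like droplets 0 UMIs in the control stood against 216 UMIs (314 CPM) after light damage, at least 14.4-fold. A single droplet held 63 of these, and without it the bound was at least 10.4-fold. In RPE-like droplets Srxn1 went from 10 UMIs (14.4 CPM) to 95 UMIs (39.7 CPM), a log2 ratio of 1.46 (0.52 to 2.57). In cone-like droplets it went from 24 UMIs (35.4 CPM) to 20 UMIs (14.97 CPM), a log2 ratio of -1.24 (-2.17 to -0.32). Rod markers in these droplets summed to 105583 CPM in the control and 52796 CPM after light damage, cone markers to 10499 and 14838 CPM, and median depth was 2497 and 13790 UMIs. The part of rod RNA and depth in the Srxn1 value was not tested. Thinned to 1500 UMIs, 5 of 161 control and 5 of 98 light damage cone-like droplets held a UMI of Srxn1 (3.11% and 5.10%), an order opposite to that of the CPM, so no direction is read from the share.

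Rods held Srxn1 at 18.7 and 20.1 CPM in the cytoplasm-rich and 13.6 and 17.3 CPM in the nucleus-rich class, with log2 ratios of 0.11 (-0.25 to 0.46) and 0.35 (-0.32 to 1.09). Cone-like droplets had the highest level in the control library, with an interval apart from those of both rod classes. It overlapped with RPE-like droplets and with Müller-like and microglia-like droplets, which held 0 UMIs. After light damage cone-like droplets had the lowest level and overlapped with rods. Of the 23 Srxn1 UMIs in microglia-like droplets after light damage (64.5 CPM), 16 were in a single droplet.

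Within the RPE-like class the members differed between the clusters that made it up. Control droplets were all in cluster 5, which also held 195 light damage droplets, and the other 106 light damage droplets were in cluster 10, led by Chil1, Serpina3n and Ptx3, none of them RPE markers. Summed RPE markers stood at 89485, 81514 and 60034 CPM in these 3 sets and median depth at 2635, 5202 and 8344.5 UMIs. Since clusters were made from the same cells, the values that follow are a description. Hmox1 stood at 5.76, 45.7 and 203 CPM, Nfe2l2 at 34.6, 62.4 and 141 CPM, Srxn1 at 14.4, 23.6 and 59.2 CPM and Txnrd1 at 44.7, 70.8 and 98.0 CPM. Gclc was at 28.8 and 32.0 CPM in cluster 5 and at 143 CPM in cluster 10, so its rise over the whole class lay in cluster 10. Nqo1 stood at 153, 162 and 111 CPM, Gclm at 96.5, 110 and 122 CPM and Keap1 at 28.8, 33.5 and 44.4 CPM.

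Single RPE-like droplets often held UMIs of several of the 4 genes called higher there. After light damage 53 of 301 held 2 of them, 35 held 3 and 13 held all 4, and 111 held 0. In the control library 3 of 159 held 2, 1 held 3 and 121 held 0. Deeper droplets held more of them: the median depth of light damage droplets ran from 4255 UMIs at 0 genes to 19682 at 4 genes, and the part of depth in these counts was not tested.

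Müller-like droplets were also of 2 kinds at a finer clustering (Leiden resolution 2). In the light damage library 27 droplets kept the Müller name and 64 took that of rods. The 27 had a median of 22134 UMIs, Müller markers at 19407 CPM, rod markers at 6038 CPM and 6.34% free RNA. The 64 had Müller markers at 2606 CPM, rod markers at 56264 CPM and a free RNA estimate of 61.0%. Since the estimate is made from rod genes, free RNA and rod RNA of these droplets cannot be told apart in it. In the control library 49 of 52 kept the name, with Müller markers at 30686 CPM and rod markers at 24582 CPM.

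In the 27 droplets the 4 genes called in this class stood higher than in the whole class. Slc7a11 was at 1677 CPM beside 16.1 CPM in the 49 control droplets and 73.2 CPM in the 64, and 534 of its 561 UMIs and 26 of the 27 droplets carried it. Srxn1 was at 549 CPM beside 0 and 111 CPM, Txnrd1 at 471 beside 32.1 and 136 CPM, and Hmox1 at 289 beside 0 and 54.2 CPM. Nfe2l2 (138 beside 104 CPM), Gclm (138 beside 193 CPM) and Keap1 (37.7 beside 64.2 CPM) overlapped with the control, and Nqo1 was at 0 UMIs in all 3 sets. Endothelial markers, 5 in all, summed to 1373 CPM in the 49 and 1940 CPM in the 27 droplets with 3 and 2 of them detected, and astrocyte markers to 40.2 and 427 CPM. The part of other cell types in these values was not tested.

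**Figure D3:**
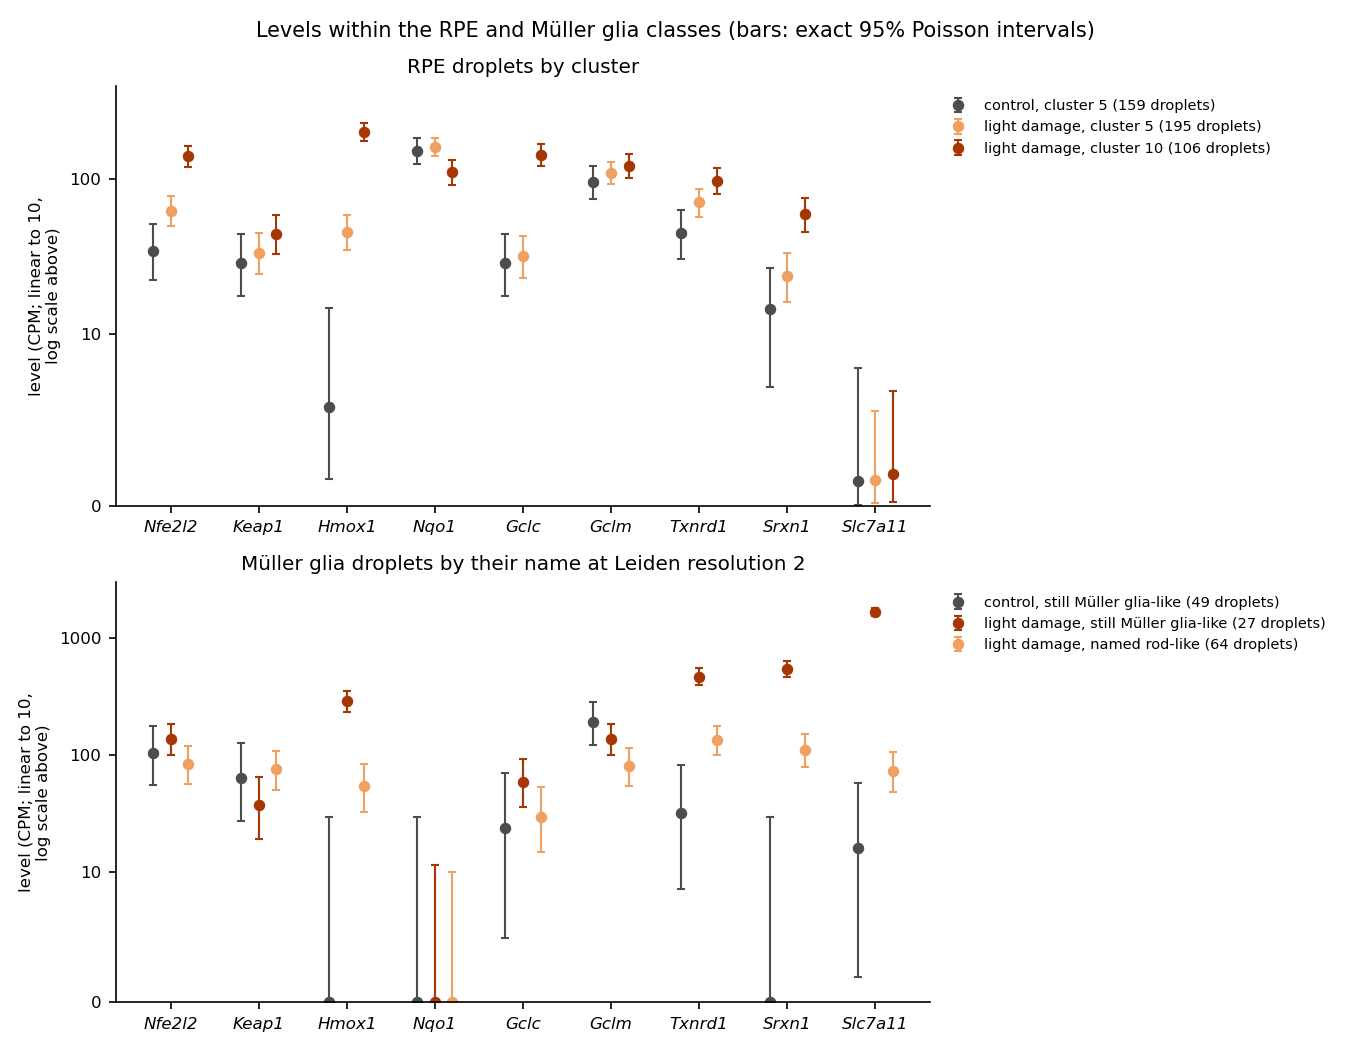
Levels of the 9 genes in CPM (vertical axis linear to 10 and logarithmic above, bars for exact 95% Poisson intervals) in RPE-like droplets by cluster (top) and in Müller-like droplets by their name at the finer clustering (bottom). Hmox1 stood at 5.76, 45.7 and 203 CPM in the 3 sets of RPE-like droplets, and Slc7a11 at 16.1 CPM in control and 1677 CPM in light damage droplets that kept the Müller name.

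Photoreceptors, most of them rods, are the cells known to die after damaging light, and the members were compared in rods in more detail. Clusters differed between libraries: counted over all their rod droplets, clusters 1 (1574 control and 281 light damage droplets), 2 (844 and 868) and 4 (30 and 615, led by Fgf2) were mostly cytoplasm-rich. Clusters 0 (482 and 1822 droplets), 3 (7 and 1265, led by Jun) and 7 (242 and 57) were mostly nucleus-rich. Nfe2l2 in light damage droplets was at 34.1 CPM in cluster 0 and 53.5 CPM in cluster 3, beside 25.1 CPM in control droplets of cluster 0. Keap1 was at 54.7 and 71.3 CPM beside 50.9 CPM, and Hmox1 at 3.94 and 6.87 CPM beside 1.36 CPM. Within cluster 0 the intervals of the libraries overlapped for Nfe2l2, Keap1 and Hmox1, and cluster 3 had only 7 control droplets. In cluster 7 Nfe2l2 was at 15.2 CPM (13 UMIs) in control and 35.3 CPM (7 UMIs) in light damage droplets, with overlapping intervals. In cluster 4 Gclm reached 55.5 CPM, beside 28.5 CPM in control droplets of cluster 1 and 32.1 CPM in those of cluster 2.

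Along the unspliced share of rod droplets the difference in Nfe2l2 was not even. Between 3 and 5% it stood at 25.1 CPM in the control and 33.1 CPM in the light damage library, and between 5 and 10% at 23.8 and 23.2 CPM. Between 30 and 40% it stood at 8.46 (2 UMIs) and 42.8 CPM (81 UMIs). Between 40 and 50% it stood at 36.0 (11 UMIs) and 53.8 CPM (198 UMIs), with overlapping intervals. Between 50 and 60% it stood at 14.0 (5 UMIs) and 44.7 CPM (127 UMIs), and between 60 and 70% at 3.08 (1 UMI) and 36.6 CPM (60 UMIs). Above 70% the order turned, to 36.0 (9 UMIs) and 18.6 CPM (9 UMIs), with overlapping intervals. The control side of each bin over 30% rests on at most 11 UMIs.

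**Figure D4:**
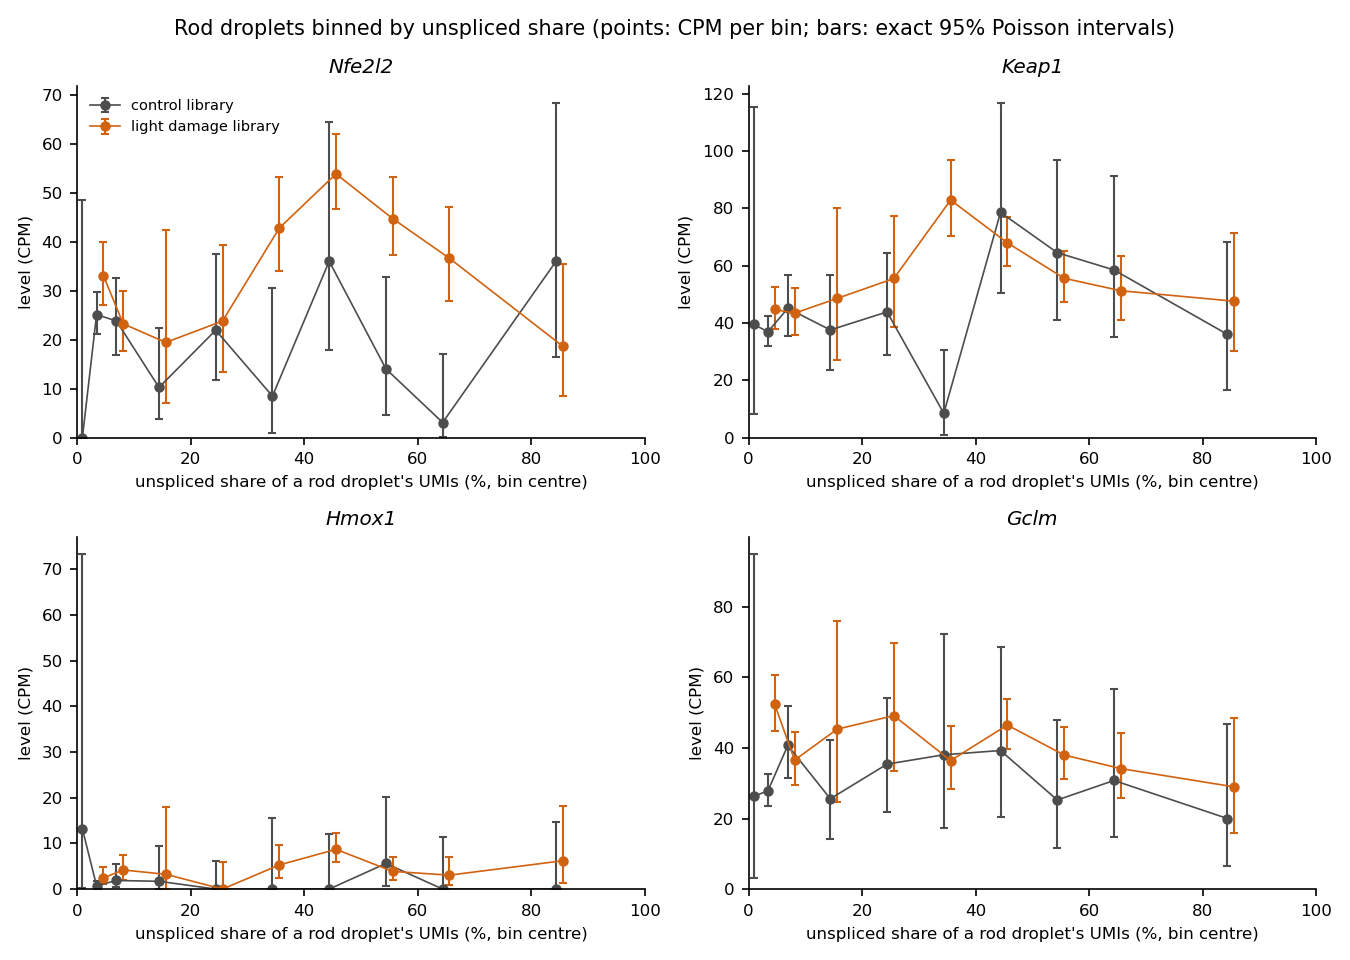
Levels in CPM (vertical axis) of 4 genes in rod droplets binned by the unspliced share of their UMIs (horizontal axis, percent), with the control library in grey, the light damage library in orange, lines that join the bins of a library and bars for exact 95% Poisson intervals. Nfe2l2 is farther apart between libraries in bins from 50 to 70% (14.0 and 3.08 CPM in the control, 44.7 and 36.6 CPM in the light damage library) than in those under 10%.

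Unspliced UMIs of rods give a second view, in CPM of unspliced UMIs. Where in the cell they lay was not tested. In control rods unspliced Gclm stood at 335 CPM in the cytoplasm-rich and 26.1 CPM in the nucleus-rich class. Unspliced Gclc went the other way, at 6.66 and 26.5 CPM. In nucleus-rich rods 0 of 8 members with enough unspliced UMIs were called, where 4.04% of 16024 genes were higher and 3.89% lower. Nfe2l2 went from 51 UMIs (24.2 CPM) to 451 UMIs (38.0 CPM), a log2 ratio of 0.65 (0.23 to 1.10) below 2-fold, and Gclc from 26.5 to 35.6 CPM (0.43, 0.02 to 0.85). Gclm held 26.1 and 28.2 CPM, Slc7a11 18.9 and 17.1 CPM, Keap1 10.9 and 12.5 CPM and Txnrd1 9.00 and 9.10 CPM. Hmox1 had 0 and 6 unspliced UMIs. The median over the 8 was 0.15, beside -0.071 over all genes.

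In cytoplasm-rich rods 3 members had enough unspliced UMIs, and 1 was called lower and 0 higher, where 3.56% of 6348 genes were higher and 7.69% lower. Nfe2l2 went from 36 UMIs (79.9 CPM) to 14 UMIs (37.5 CPM), a log2 ratio of -1.09 (-2.09 to -0.16), a call lost in 4 of 13 alternative settings with a range of -1.19 to -0.73. Gclm went from 335 to 244 CPM (-0.46, -0.85 to -0.07), opposite in sign to its exonic UMIs in the same droplets. Slc7a11 had 13 and 6 unspliced UMIs (-0.84, -2.52 to 0.65). The median over these 3 was -0.84, beside -0.21 over all genes.

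Nucleus-rich and cytoplasm-rich rods were also compared within each library. In the control library 0 of 7 members were called in either direction, where 42.2% of 11017 genes were higher and 5.89% lower in nucleus-rich rods. In the light damage library 0 of 8 were called, where 43.8% of 13292 genes were higher and 4.67% lower. The median log2 ratio was 0.23 over members and 0.81 over all genes in the control, and 0.47 and 0.93 after light damage. Intervals off 0 were found for Keap1 (0.43, 0.05 to 0.80) and Gclc (0.57, 0.07 to 1.04) in the control, and after light damage for Keap1 (0.53, 0.32 to 0.73), Gclc (0.41, 0.14 to 0.70), Nfe2l2 (0.68, 0.43 to 0.94) and Hmox1 (0.85, 0.10 to 1.65). The median gene with at least 50 UMIs in each stood at 0.63 and 0.48. Relative to it all 7 tested members lay below 0 in the control, and after light damage Nfe2l2, Keap1, Hmox1 and Slc7a11 lay above it, by 0.20, 0.05, 0.37 and 0.18. The call count changed in 7 of 13 settings in the control and in 5 after light damage, to at most 2.

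Other genes of the pathway were taken from 5 lists with 35 genes. In RPE-like droplets, where 8.38% of all tested genes were higher and 5.22% lower, 3 of 7 tested genes of the sensor and partner list were called higher and 0 lower (list median log2 ratio 0.42). Maff, a small Maf protein, went from 0 to 143 UMIs (59.7 CPM, at least 13.8-fold), Mafg, another partner of Nrf2, from 12.96 to 29.2 CPM (1.17, 0.17 to 2.36), and Sqstm1, an autophagy receptor that can bind Keap1, from 99.4 to 252 CPM (1.34, 0.98 to 1.72). Of the glutathione supply list 1 of 3 was called higher (list median 0.25): Slc3a2, the partner chain of Slc7a11 in the exchanger and of other transporters, from 298 to 819 CPM (1.46, 1.25 to 1.67). Slc7a11 itself had 1 and 4 UMIs there. Of the thioredoxin and peroxiredoxin list 0 of 6 were higher and 1 lower (list median 0.18): Txnip, an inhibitor of thioredoxin, from 24.5 to 2.50 CPM (-3.29, -4.92 to -1.88). Of the heme, quinone and iron list 0 of 6 were called (median -0.34), and of the list of NADPH and other targets 1 of 10 was higher (median -0.10): Osgin1, an oxidative stress target, from 2.88 to 30.1 CPM (3.38, 1.48 to 6.46).

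In Müller-like droplets, where 10.7% of all tested genes were higher and 11.3% lower, 3 of 7 sensor and partner genes were called higher (list median 0.85). Bach1, the repressor of these targets, went from 2 UMIs (14.5 CPM) to 52 UMIs (75.7 CPM, log2 ratio 2.38, 0.46 to 5.46), Sqstm1 from 102 to 224 CPM (1.14) and Maff from 1 to 32 UMIs (2.68, 0.10 to 8.03). Slc3a2, from 232 to 537 CPM (1.21, 0.69 to 1.78), was the called gene among 3 of the glutathione supply list (median 0.0026). Other genes of the lists fell. Prdx6, a peroxiredoxin, went from 799 to 258 CPM (-1.63, -1.98 to -1.28), 1 lower and 0 higher of 4 in its list (median 0.30). In the heme, quinone and iron list 3 of 4 were lower (median -1.20): the ferritin chain Fth1, from 2150 to 1021 CPM (-1.07), Nqo2, a relative of Nqo1, from 72.6 to 14.6 CPM (-2.32), and Hmox2, the constitutive heme oxygenase, from 79.9 to 32.0 CPM (-1.32). Of 8 genes in the list of NADPH and other targets 0 were called (median 0.020). In droplets that kept the Müller name at the finer clustering these 8 genes kept their calls, with log2 ratios of 2.89 for Bach1, 1.70 for Sqstm1, 3.60 for Maff, 1.96 for Slc3a2, -1.37 for Prdx6, -1.25 for Fth1, -3.09 for Nqo2 and -2.09 for Hmox2. Also called in those droplets were Mafg (1.31, 0.39 to 2.38) higher and Rbx1 (-1.09, -1.77 to -0.40) lower in the sensor and partner list. In the list of NADPH and other targets Abcc1 (2.01, 0.33 to 4.37) was called higher. Of 7087 genes tested in those droplets, 13% were higher and 15.1% lower.

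In microglia-like droplets, on 12 control droplets, 5.29% of all tested genes were higher and 8.66% lower. There 3 of 8 sensor and partner genes were called higher: Bach1 (1 to 98 UMIs, log2 ratio 3.17), Mafg (1 to 63 UMIs, 2.53) and Sqstm1 (0 to 77 UMIs, at least 2.35-fold). Slc3a2 (4 to 238 UMIs, 2.45) was called among 2 genes of the glutathione supply list, Prdx1 (3 to 168 UMIs, 2.36) among 5 of the thioredoxin list, the ferritin chain Ftl1 (47 to 1433 UMIs, 1.48) among 5 of the heme list and Tkt (2 to 86 UMIs, 1.98), a transketolase, among 4 of the NADPH list, with 0 lower in all. The 5 medians were -0.27, 0.83, 0.49, 0.97 and 0.98 in this order. Genes at 0 control UMIs entered them at their bound, so no direction is read from their signs.

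In cone-like droplets 14.1% of all tested genes were higher and 3.31% lower. There 2 of 7 sensor and partner genes were called higher (median 0.76): Mafg, from 53.1 to 121 CPM (1.19, 0.66 to 1.76), and Sqstm1, from 23.6 to 54.6 CPM (1.21, 0.42 to 2.09). Txnip, from 0 to 32 UMIs (at least 5.41-fold), was called in the thioredoxin list (1 of 5, median -0.20), against its direction in RPE-like droplets, and Ephx1, an epoxide hydrolase, from 0 to 12 UMIs (at least 2.03-fold), in the NADPH list (1 of 8, median -0.090). The glutathione and heme lists had 0 of 3 and 0 of 5 (medians 0.26 and -0.049).

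In nucleus-rich rods, where 5.34% of all tested genes were higher and 4.33% lower, Sqstm1, from 4.75 to 11.5 CPM (1.27, 0.19 to 2.62), was 1 of 8 sensor and partner genes called higher (median 0.22), and Blvra, a biliverdin reductase, from 25.8 to 11.1 CPM (-1.22, -1.76 to -0.65), was 1 of 6 heme genes called lower (median -0.093). The glutathione, thioredoxin and NADPH lists had 0 of 3, 0 of 6 and 0 of 7 called (medians -0.42, -0.041 and -0.18). In cytoplasm-rich rods, where 5.11% of all tested genes were higher and 1.38% lower, Mafk, a small Maf protein, from 5 to 19 UMIs (2.25, 0.78 to 4.02), was called among 7 (median 0.52), and 0 of 3, 0 of 5, 0 of 6 and 0 of 7 in the other lists (medians 0.19, -0.27, 0.16 and -0.014).

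On unspliced UMIs of nucleus-rich rods 4.04% of all tested genes were higher and 3.89% lower. Bach1 went from 24.2 to 11.2 CPM (-1.11, -1.58 to -0.61), called lower among 6 of its list, and Prdx1 from 4.74 to 16.2 CPM (1.77, 0.86 to 2.85), called higher among 5. The 5 list medians were 0.30, -0.55, -0.36, 0.11 and -0.17. In cytoplasm-rich rods, where 3.56% of all tested genes were higher and 7.69% lower on unspliced UMIs, Nqo2, from 57.7 to 123 CPM (1.10, 0.37 to 1.85), was called higher among 2. The medians of the 4 lists with over 1 tested gene were 0.48, -0.41, 0.71 and -0.80.

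In nucleus-rich against cytoplasm-rich control rods, where 42.2% of all tested genes were higher and 5.89% lower, Mafg (3.18), Gss (2.14), a glutathione synthetase, and Abcc1 (1.45), an exporter of glutathione conjugates, were called higher, 1 in each list of 6, 3 and 7 genes. In the same comparison Txn1 (-1.38), Prdx1 (-1.12) and Txnrd2 (-2.04) of 5 thioredoxin genes and Fth1 (-1.59) and Ftl1 (-1.37) of 6 heme genes were lower. After light damage, where 43.8% of all tested genes were higher and 4.67% lower, Mafg (2.69), Gss (1.76) and Abcc1 (1.48) were again higher and Txn1 (-1.32) and Fth1 (-1.72) lower, and Txnip (0 to 20 UMIs, at least 3.93-fold) was higher and Me1 (-1.15) and Taldo1 (-1.06), both in NADPH supply, lower. The 5 list medians were 0.28, 0.51, -1.12, 0.60 and -0.26 in the control and 0.32, 0.066, -0.44, -0.28 and -0.42 after light damage.

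The genes most like each member were taken over the 12 class and library profiles among 9835 genes, by Pearson's r of log2(CPM + 1), as a description in which profiles share libraries. For Nqo1 they were Slc39a12, Bmp4 and Upk3b (each r 0.999), for Gclm Tceal8 (0.981), for Txnrd1 Slc7a1 (0.963), for Srxn1 Uhrf1bp1l (0.962), for Slc7a11 Hbegf (0.954), for Hmox1 Cdkn1a (0.952), for Keap1 Arl14ep (0.930), for Nfe2l2 Ptbp3 (0.928) and for Gclc Nfkbib (0.867). No member was among the 3 genes most like another member.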

How the data were processed

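The authors demultiplexed with Cell Ranger 7.0.1, mapped reads with Salmon 1.10.1 and alevin-fry 0.8.1 on a spliced and intron index of the mouse mm10 reference, and deposited raw UMI counts per barcode and gene in spliced, unspliced and ambiguous blocks, unfiltered and not normalized. Members and lists were chosen with earlier results of these data known.

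Barcodes were kept above the inflection point of the rank curve (1464 UMIs in the control, 1614 in the light damage library) and under 10% mitochondrial UMIs. Scrublet called 1 and 0 doublets by its own threshold, so the top scores, 0.8% per 1000 droplets (114 and 276), were left out. Droplets were clustered on 2000 variable genes without the members, the pathway lists, Xist, Tsix and Y-linked genes (50 components, 15 neighbours, Leiden resolution 1, seed 0) and named from markers. Score limits and the requirement of 1 UMI of a class marker were set after the data were seen.

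Values sum spliced and ambiguous UMIs over a class, per 1000000 (CPM). CPM carry exact Poisson, shares exact binomial and log2 ratios exact conditional binomial intervals at 95%. Exonic UMIs per class ranged from 32726 (control microglia-like) to 10537692 (light damage nucleus-rich rods). Free RNA came from barcodes under 50 UMIs, its share from 6 genes of another class. No test across samples was possible. Only the comparison step was run on simulated counts, drawn per class as the Poisson counts that its intervals assume. Filters, clustering, naming, free RNA estimates and thinning were not tested in this way, nor was spread between droplets. Named are the 9 members, called genes of the 5 lists (at most 8 per comparison, nearest interval end first) and the genes most like a member. Tried as alternatives were mitochondrial UMIs under 5%, at least 1000 UMIs per droplet, doublets kept, free RNA subtracted, droplets of high free RNA left out, Leiden resolution 2, droplets named from their own markers, a single rod cut at 25%, centring on the median gene, other totals, no minimum of UMIs and unspliced UMIs added. A further pair was chosen after seeing the data: keeping droplets without a marker UMI, and leaving out the droplet of most UMIs of a member. Scripts ran with scanpy 1.11.5, leidenalg 0.10.2, scipy 1.17.1 and numpy 2.4.6 under Python 3.11.15.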

Additional observations from a re-analysis of the deposited data

Results flagged for a closer look

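Srxn1 went in opposite directions between classes of the same 2 libraries. Its log2 ratio of light damage over control was 1.46 in RPE-like droplets and, as a lower bound against 3 UMIs, 3.85 in Müller-like droplets, while it was -1.24 in cone-like droplets. With 1 library per condition the difference between classes was not tested. The cone-like value rests on 24 control and 20 light damage UMIs, and it kept its call in 13 of 13 alternative settings, between -1.42 and -1.06. Rod markers in cone-like droplets summed to 105583 CPM in the control and 52796 CPM after light damage, and median depth was 2497 and 13790 UMIs, whose part in the value was not tested. The share of cone-like droplets with a UMI at equal depth went the other way (3.11% in the control and 5.10% after light damage), with overlapping intervals.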

How the results depend on the processing

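No paired analysis was possible because each condition has 1 library and no test across samples. Of the 16 member calls, 13 were kept in all 13 alternative settings tried for each. Nfe2l2 in nucleus-rich rods was lost with unspliced UMIs added (log2 ratio 0.91), Keap1 in microglia-like droplets in 5 settings and unspliced Nfe2l2 in cytoplasm-rich rods in 4. The number of members called was the same in every setting in exonic UMIs of cytoplasm-rich rods and in unspliced UMIs of nucleus-rich rods. It was 5 in place of 4 in RPE-like droplets with centring on the median gene (Txnrd1 higher) and in Müller-like droplets with mitochondrial UMIs under 5% (Gclm lower), and 2 in place of 3 in microglia-like droplets in the 5 settings that lost Keap1.

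The other counts moved as follows, and the cause was not tested. In cone-like droplets 2 in place of 1 were called with a minimum of 1000 UMIs, with droplets without a marker UMI kept and without the droplet of most UMIs of the member. In nucleus-rich rods 1 in place of 2 was called with unspliced UMIs added. On unspliced UMIs of cytoplasm-rich rods 0 in place of 1 were called with mitochondrial UMIs under 5%, doublets kept, droplets named from their own markers and centring on the median gene, and 2 with a single rod cut at 25%. Between rods of the control library 1 in place of 0 was called with at least 1000 UMIs per droplet, mitochondrial UMIs under 5%, doublets kept, droplets named from their own markers, centring and no minimum of UMIs per gene, and 2 with unspliced UMIs added. Between rods of the light damage library 1 in place of 0 was called with a minimum of 1000 UMIs and without the droplet of most UMIs, and 2 with Leiden resolution 2, droplets named from their own markers and unspliced UMIs added.

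Of 936 single values of members under an alternative, 894 were counted as the same and 42 as moved, and 0 reversed a call. The 894 are not a count of calls that held, since a value can stay within its interval and lose its call. Keap1 in microglia-like droplets kept its call in 8 of 13 alternative settings. Its log2 ratios there, from -2.53 to -0.80, all lay within its interval of -3.52 to -0.13. Depth limits the microglia-like class most: with 32726 control UMIs, 3 UMIs are 91.7 CPM.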
